A study of Mus musculus with 4 samples.

Results

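The 10 genes described here act at the G1 checkpoint of the cell cycle and were followed through a single-cell series on cultured mouse spermatogonia. They were the D cyclins Ccnd1, Ccnd2 and Ccnd3, their partner kinases Cdk4 and Cdk6, and the CDK inhibitors Cdkn1b, Cdkn1c, Cdkn2a, Cdkn2b and Cdkn2c. The set was chosen by gene symbol, and all 10 were found among the 32285 genes of the count tables. The genes were read in 2 classes of cells. A cell was put in the germ class when it held at least 2 UMIs (unique molecular identifiers, which count captured RNA molecules) of Dazl, Tex15, Stk31 and Epcam together and more of them than of Col1a1, Col1a2, Sparc and Dcn. A cell was put in the feeder class by the reverse rule, and all other cells had no class. None of the 10 genes was part of this rule.

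Primary spermatogonial cultures had been started from the testes of male C57BL/6 pups, pooled from 3 mice at postnatal day 6. Thy1-positive cells were sorted with magnetic beads and grown on STO feeder cells, a line of mouse embryonic fibroblasts. They were then kept for 3 days with PBS, the vehicle, or with PND7 tEVs at 1 μg/mL, which are extracellular vesicles collected from whole decapsulated testes (postnatal day 7) and thus from mixed cell types. Either arm had 2 libraries, here called vehicle 1, vehicle 2, EV 1 and EV 2. Expression of EV 2 was not analysed here, so the EV arm was described by 1 library. Titles call the replicates biological and the study describes them as independent samples. The p-values come from fits over these libraries that weight them by their counts and share information on spread between genes. A small p-value therefore does not mean that a gene had close values in the 3 libraries, whose own values are given beside it where they part. Wherever 3 values are given in a row without names, they are those of vehicle 1, vehicle 2 and EV 1 in this order.

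The 3 libraries analysed held between 10793232 and 27444797 UMIs. Germ class cells numbered 4411, 4783 and 227 in vehicle 1, vehicle 2 and EV 1, and feeder class cells 2357, 2473 and 2508. Sums over the germ class therefore rested on 9445041, 11013433 and only 325012 UMIs in that order, so every germ class value of EV 1 is less precise. Of the germ class cells, 706, 655 and 77 held only 2 UMIs of its genes, the minimum. A stricter rule, with at least 4 such UMIs and 4 times those of the other genes, kept 2839, 3346 and 89 cells. Whether cells put in the wrong class shaped the values of EV 1 was not tested. Germ cell markers outside the rule (Ddx4, Dnd1, Sall4, Mael, Tdrd5 and Taf4b) summed to between 511 and 527 CPM (the UMIs of a gene in every 1000000 UMIs of its library and class) in the germ class and to between 3.39 and 16.3 CPM in the feeder class. Fibroblast markers outside the rule summed to between 1634 and 1712 CPM in the feeder class, but still to 194, 184 and 320 CPM in the germ class of vehicle 1, vehicle 2 and EV 1. That was 11.9%, 10.8% and 18.9% of the feeder level, with single markers in the vehicle libraries between 3.17% (Col5a2) and 62.2% (Col5a1). The same share of a gene's own feeder level is given below as its free RNA estimate, the level in the germ class that transcripts of feeder cells could account for. This estimate can be too high. Cdkn1a, an inhibitor outside the set, lay at only 6.56% and 5.48% of its feeder level in the germ class of vehicle 1 and vehicle 2. The 5 Sertoli markers summed to 283, 299 and 277 CPM in the feeder class and 34.6, 30.7 and 52.3 CPM in the germ class, with 4, 5 and 3 of them detected in the feeder class. Amh, a defining Sertoli gene, had UMIs in the feeder class of vehicle 2 but not in that of vehicle 1 or EV 1. The feeder class is named for the STO cells, and the part of Sertoli or other testis cells in it was not tested. Summed markers of Leydig, peritubular myoid, macrophage and endothelial cells lay between 2.21 and 27.7 CPM in either class.

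D cyclins switch on Cdk4 and Cdk6, and the active kinases phosphorylate the retinoblastoma proteins, which releases E2F factors and lets a cell leave G1 for S phase. Inhibitors of the INK4 family (Cdkn2a, Cdkn2b, Cdkn2c) bind Cdk4 and Cdk6 alone, whereas those of the CIP/KIP family (Cdkn1b, Cdkn1c) bind cyclin and kinase complexes and also act on Cdk2. In the testis, Ccnd2 is known as a D cyclin of spermatogonia, and Cdkn1b and Cdkn2c are known to restrain the divisions of somatic and germ cells there.

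To ask which D cyclin each class used, UMIs were summed per library and class. Ccnd2 led in the germ class and Ccnd1 in the feeder class. Ccnd2 made up 63.0% of the D cyclin UMIs of the germ class in vehicle 1 (exact 95% interval 61.9 to 64.0), 63.8% in vehicle 2 (62.8 to 64.7), and EV 1 reached 62.1% (56.1 to 67.9). Ccnd1 made up 70.5% of the D cyclin UMIs of the feeder class in vehicle 1, and 69.8% and 55.0% in the other libraries. The order of the D cyclins was the same in all 3 libraries within each class, namely Ccnd2, Ccnd1, Ccnd3 in the germ class and Ccnd1, Ccnd2, Ccnd3 in the feeder class. In the germ class Ccnd1 and Ccnd3 lay close in EV 1, with 62 and 41 UMIs and overlapping intervals of their CPM (146 to 245 and 90.5 to 171). The order of Ccnd1 and Ccnd3 in the germ class turned over once the free RNA estimate was taken off. Ccnd1 was then at 65.9, 82.9 and 43.7 CPM and Ccnd3 at 129, 128 and 111 CPM, while Ccnd2 still led. Since the estimate can be too high, which of Ccnd1 and Ccnd3 was higher in germ class cells is not settled. These shares compare captured molecules, not reads per length, and the intervals here and below cover counting error only.

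**Figure D1:**
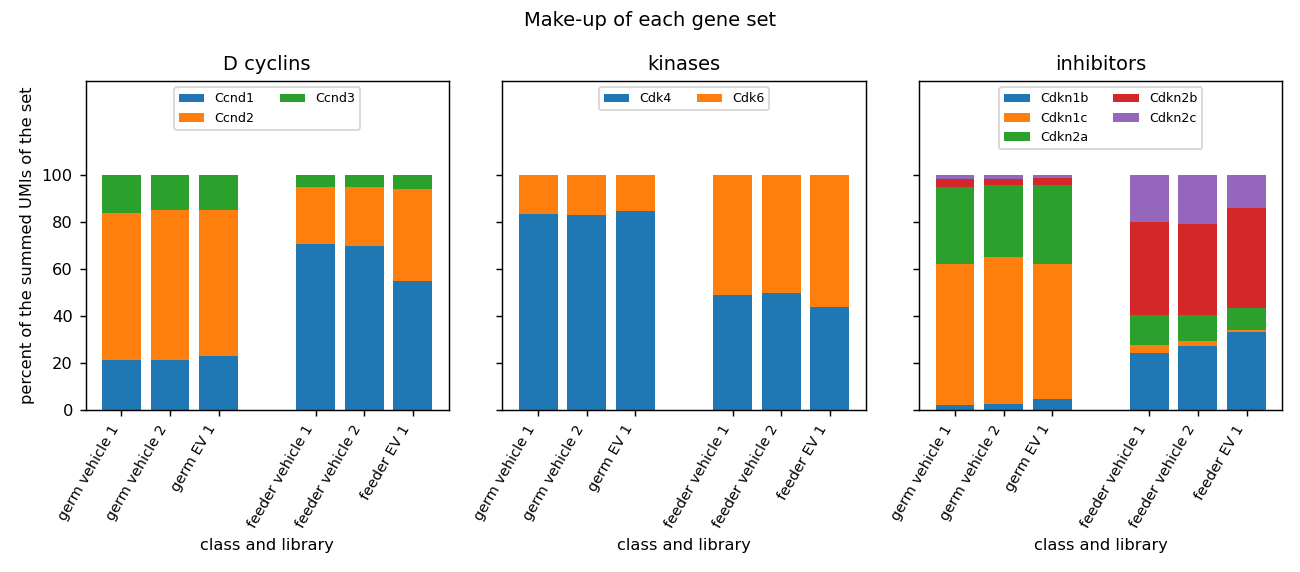
Share (in percent) of each gene in the summed UMIs of the D cyclins, of Cdk4 and Cdk6, and of the 5 inhibitors, per class and library. Ccnd2, Cdk4 and Cdkn1c hold most of the germ class bars, whereas Ccnd1 holds between 55.0% and 70.5% of the D cyclins in the feeder class.

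Ccnd1, the D cyclin that responds to growth factors in most cell types, had 181, 190 and 191 CPM in the germ class. In the feeder class its levels were 968, 995 and 779 CPM. The classes did not overlap, and the log2 ratio of germ to feeder was −2.28 ± 0.22 (SD, n = 3 libraries). The free RNA estimate of Ccnd1 in the germ class was 115, 107 and 147 CPM, which is most of what was measured there, and its part in the germ class level was not tested. After thinning each cell to 1000 UMIs, a Ccnd1 UMI was found in 15.9%, 15.7% and 15.2% of germ class cells and in 49.6%, 51.0% and 46.5% of feeder class cells.

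Ccnd2 had 541, 573 and 520 CPM in the germ class and 332, 357 and 555 CPM in the feeder class, in the same order of libraries. The germ class was higher in both vehicle libraries and not in EV 1, where the intervals of the classes overlapped (445 to 605 and 537 to 573 CPM). Free RNA was estimated at 39.4, 38.4 and 105 CPM in the germ class, far below the level of Ccnd2 there. A Ccnd2 UMI was found in 39.1%, 41.3% and 31.5% of thinned germ class cells, in a total of 4265, 4671 and 178 cells. In the feeder class the shares were 26.4%, 28.5% and 38.5%. Without thinning, 59.3%, 63.7% and 42.3% of germ class cells held a Ccnd2 UMI, at median depths of 1936, 2091 and 1322 UMIs.

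Ccnd3 had 138, 135 and 126 CPM in the germ class against 72.9, 72.8 and 82.8 CPM in the feeder class. It was higher in the germ class of every library, and the free RNA estimate there was at most 15.6 CPM.

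**Figure D2:**
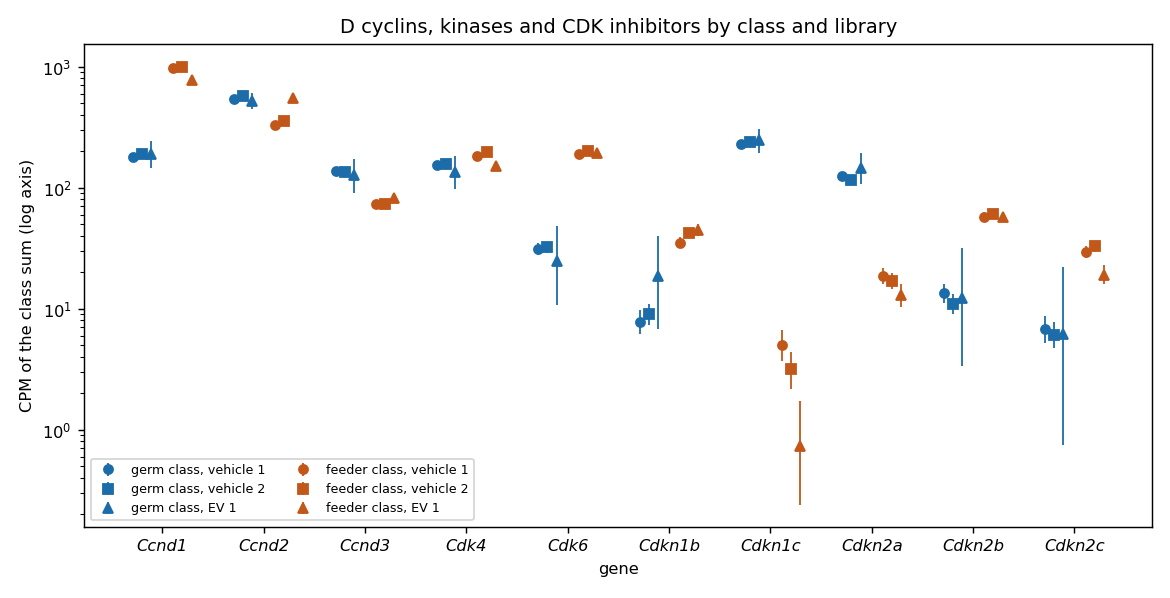
CPM (log axis) of the 10 genes in the germ class (blue) and the feeder class (orange) of each library, with exact Poisson 95% intervals. Cdkn1c separates the classes most, from between 228 and 246 CPM down to between 0.737 and 5.02 CPM, and Ccnd2 is the gene whose classes cross in EV 1.

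Across the kinases, the germ class relied mostly on Cdk4 UMIs and the feeder class held Cdk4 and Cdk6 about evenly. Cdk4 took 83.3%, 82.9% and 84.6% of the Cdk4 and Cdk6 UMIs of the germ class, and 48.9%, 49.9% and 43.6% of those in the feeder class. Cdk4 itself had 155, 157 and 135 CPM in the germ class and 183, 198 and 151 CPM in the feeder class, a small difference with overlapping intervals in EV 1. Cdk6 had 31.1, 32.3 and 24.6 CPM in the germ class against 191, 199 and 195 CPM in the feeder class. The free RNA estimate of Cdk6 in the germ class was 22.7, 21.4 and 36.8 CPM, at or above the measured level in EV 1, where 8 UMIs were counted.

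Promoter sequence, here the 250 bases before each RefSeq start (GRCm38.p6), was given for 7 of the 10 genes at 10 starts. Cdk4, the leading kinase gene of the germ class, is shown because it held the E-box CACGTG, the motif that Myc family proteins bind, at 4 places. Of 32851 promoters of this length, 6.02% held CACGTG at least once on either strand, a palindrome that reads the same on both. Among the other promoters of the set, 1 place was found before Cdk6 and no match before the remaining starts. Neither TTTCGCGC nor TTTGGCGC, letters of an E2F site searched on both strands, was found in the 10 windows, while 0.654% of all promoters held one. The Cdk4 sequence lies at chr10:127063285-127063534 on the plus strand, with the E-boxes in capitals:
Cdk4: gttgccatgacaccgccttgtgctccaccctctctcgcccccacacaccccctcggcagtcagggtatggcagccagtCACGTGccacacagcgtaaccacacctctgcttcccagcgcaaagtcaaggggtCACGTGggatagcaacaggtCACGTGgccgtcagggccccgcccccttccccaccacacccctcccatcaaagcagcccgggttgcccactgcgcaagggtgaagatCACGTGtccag
Mycn, an E-box binding factor, and Myc itself are given with the pathway genes below. A match is a description of letters and shows no binding.

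Among the inhibitors, Cdkn1c and Cdkn2a were higher in the germ class and the other 3 in the feeder class. Cdkn1c (p57Kip2), an imprinted CIP/KIP gene, had 228, 237 and 246 CPM in the germ class. In the feeder class it had 5.02, 3.16 and 0.737 CPM, from 48, 34 and 5 UMIs, which is below the 7.12, 6.02 and 1.63 CPM that free RNA of germ cells was estimated to give. Its feeder class level is therefore read as background. Cdkn2a had 125, 116 and 145 CPM in the germ class and 18.7, 17.0 and 13.0 CPM in the feeder class. Together Cdkn1c and Cdkn2a held most inhibitor UMIs of the germ class, with 59.8%, 62.5% and 57.6% for Cdkn1c and 32.8%, 30.6% and 33.8% for Cdkn2a.

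Cdkn2b (p15Ink4b) had 57.7, 60.7 and 57.2 CPM in the feeder class against 13.4, 10.99 and 12.3 CPM in the germ class. Cdkn1b (p27Kip1) had 35.1, 42.5 and 44.8 CPM in the feeder class against 7.83, 8.99 and 18.5 CPM in the germ class, the last from 6 UMIs. Cdkn2c (p18Ink4c) had 29.4, 32.9 and 19.2 CPM in the feeder class and 6.78, 6.08 and 6.15 CPM in the germ class, the last from 2 UMIs. For these genes the free RNA estimate took much of the germ class level, between 3.49 and 10.8 CPM, and its part was not tested. Cdkn2b was the leading inhibitor of the set in the feeder class, with 39.5%, 38.8% and 42.4% of the inhibitor UMIs. Shares of thinned cells ran the same way, with a Cdkn1c UMI in 19.0%, 19.0% and 17.98% of germ class cells and in 0.616%, 0.331% and 0.0861% of feeder class cells.

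Cdkn2a and Cdkn2b are neighbours on chromosome 4, both on the minus strand, yet their classes were opposite. In GRCm38 Cdkn2a spans chr4:89274471-89294653 and Cdkn2b chr4:89306299-89311039. Cdkn2a has 2 known starts. The upstream start gives p19Arf, which acts through Mdm2 and p53, and the downstream start gives p16Ink4a, which binds Cdk4 and Cdk6. Both transcripts share their last exons, so UMIs counted per gene cannot tell them apart. The 250 bases before each start are shown because they carry this locus, with CG dinucleotides in capitals:
Cdkn2a upstream start, chr4:89294620-89294869, minus strand: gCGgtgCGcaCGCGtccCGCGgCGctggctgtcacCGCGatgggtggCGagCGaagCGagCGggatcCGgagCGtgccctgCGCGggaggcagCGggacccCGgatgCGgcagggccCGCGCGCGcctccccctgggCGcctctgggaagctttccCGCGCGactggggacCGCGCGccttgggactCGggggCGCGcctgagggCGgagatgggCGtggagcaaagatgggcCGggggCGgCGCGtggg
Cdkn2a downstream start, chr4:89282193-89282442, minus strand: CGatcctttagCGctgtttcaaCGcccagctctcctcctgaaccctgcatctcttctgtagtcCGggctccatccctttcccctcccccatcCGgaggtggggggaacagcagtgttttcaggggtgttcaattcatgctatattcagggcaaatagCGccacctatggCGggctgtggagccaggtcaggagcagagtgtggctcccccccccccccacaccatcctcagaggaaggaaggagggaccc
Cdkn2b, chr4:89311033-89311282, minus strand: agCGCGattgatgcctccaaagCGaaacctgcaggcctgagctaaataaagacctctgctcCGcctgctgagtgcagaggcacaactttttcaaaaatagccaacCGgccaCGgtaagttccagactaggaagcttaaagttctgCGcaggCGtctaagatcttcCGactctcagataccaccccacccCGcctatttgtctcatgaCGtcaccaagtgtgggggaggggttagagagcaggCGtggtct
The upstream Cdkn2a window held 40 CG dinucleotides, the downstream window 7 and the Cdkn2b window 12, against a median of 6 over the 32851 promoters. Mtap, the gene next to this pair, had 34.1, 35.9 and 36.9 CPM in the germ class and 48.5, 50.1 and 40.5 CPM in the feeder class. Dmrta1, on the other side, had 1 UMI over the 6 sums together.

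The difference between classes was then tested across all genes with edgeR's quasi-likelihood test on the library sums, with the library as a block and Benjamini-Hochberg adjustment. Of 15637 genes tested, 79.3% passed an adjusted p of 0.05, and 9 of the 10 genes did. A share near this background is not a result about the set. Higher in the germ class were Cdkn1c (log2 5.76, adjusted p = 6.28e-08), Cdkn2a (2.46, adjusted p = 1.08e-07) and Ccnd3 (0.43, adjusted p = 0.0147), each in 3 of 3 libraries. Lower were Cdk6 (−3.03), Ccnd1 (−2.76), Cdkn2b (−2.65), Cdkn2c (−2.63), Cdkn1b (−2.52) and Cdk4 (−0.69), also in 3 of 3 libraries, with edgeR adjusted p between 5.75e-08 and 0.000294. Ccnd2 did not pass (log2 0.02, edgeR adjusted p = 0.920, higher in 2 of 3 libraries). With sums scaled by total UMIs alone, the median log2 value of all genes moved from −0.04 to 0.36 and the split from 6049 higher and 6349 lower to 7698 higher and 4996 lower. Cdk4 was then at −0.27 and Ccnd3 at 0.86. Ccnd2 then passed as higher in the germ class (log2 0.48), as it did without EV 1 (0.29), whereas without vehicle 1 or vehicle 2 it did not pass (−0.21 and −0.20). With free RNA subtracted, the values of Cdk6 (−4.73), Ccnd1 (−4.14), Cdkn2b (−3.82), Cdkn2c (−3.75) and Cdkn1b (−3.55) lay further from 0. Cdkn1c then had no feeder level left to divide by, so its fitted value (13.63) is no fold, and 5.76 rests on a feeder level at background. Ccnd3 did not pass without vehicle 1 (0.28), without vehicle 2 (0.30) or with DESeq2 (0.36).

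Among 31 other genes of the G1/S pathway, 21 were higher and 8 lower in the germ class. The largest differences upwards were Mycn (log2 5.04), E2f2 (4.19) and Ccna2 (3.84), the last a cyclin of S phase and G2. Mycn had 5, 3 and 0 UMIs in the feeder class and E2f2 had 2, 4 and 5, at about the free RNA estimate in the vehicle libraries, so their exact values rest on background. The largest downwards were Cdkn1a (−4.13), Myc (−3.43) and Mdm2 (−1.68), the ubiquitin ligase that acts on p53. Myc had 15, 7 and 1 UMIs in the germ class, at about its free RNA estimate, so its exact value also rests on background. Cdkn1a (p21), the third CIP/KIP inhibitor, had 931, 1046 and 993 CPM in the feeder class, more UMIs than the 5 inhibitors of the set together. In the germ class Cdkn1a had 61.1, 57.4 and 209 CPM, and the classes did not overlap. The free RNA estimate of Cdkn1a in the germ class was 110, 113 and 188 CPM, above the measured level in the vehicle libraries, so the estimate can exceed what free RNA gave. Cdkn2d (p19Ink4d), the remaining INK4 gene, had 35.5, 33.5 and 36.9 CPM in the germ class and 43.9, 45.0 and 33.9 CPM in the feeder class, with a log2 value of −0.71 in the test and opposite signs by total UMIs (−0.31, −0.42 and 0.18). Over the 6 sums of class and library, the genes nearest in pattern were Spcs1, Sh3bgrl and Itm2b for Ccnd1 (root mean square difference of centred log2 CPM 0.0578 to 0.0854 among 12134 genes). For Ccnd2 they were Acrbp, Ptk2 and Nsun2 (0.0896 to 0.104), and for Ccnd3 Metap2, Hnrnpa3 and Tmem41b (0.0367 to 0.0458).

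Within the germ class, cells with at least 1000 UMIs were ranked by the share of their UMIs in a list of 54 G2/M genes, which holds none of the 10 genes, and the upper tercile was compared with the lower within each library. Cdkn1c was higher and Ccnd2 lower in the upper tercile. Cdkn1c had 314 against 99.5 CPM in vehicle 1, 320 against 117 CPM in vehicle 2 and 407 against 137 CPM in EV 1. The libraries gave log2 values of 1.65, 1.45 and 1.53, with a mean of 1.55 ± 0.10 (SD, n = 3). Ccnd2 had 394 against 801 CPM in vehicle 1, 394 against 874 CPM in vehicle 2 and 494 against 524 CPM in EV 1. EV 1 stood apart for Ccnd2, with a log2 value of −0.09 from 51 and 46 UMIs, while the vehicle libraries gave −1.02 and −1.15. Whether EV 1 differed from vehicle in this respect was not tested, since it is 1 library.

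In the same edgeR test, 23.1% of 12377 genes passed and 4 of the 10 did. These were Cdkn1c (log2 1.57, adjusted p = 2.95e-15, higher in 3 of 3 libraries), Ccnd2 (−1.04, adjusted p = 1.51e-13, lower in 3 of 3), Ccnd1 (−0.33, adjusted p = 0.000508, lower in 3 of 3) and Cdk4 (−0.30, adjusted p = 0.00604, lower in 2 of 3). The fit weights libraries by their counts, so these log2 values are close to those of the vehicle libraries. Without vehicle 1 or without vehicle 2 no gene passed, with 1413 and 1311 genes at an unadjusted p under 0.05 and estimates for Cdkn1c of 1.48 and 1.65. With DESeq2, and with no library block, Cdkn1c and Ccnd2 were the members of the set that passed. Without EV 1, Cdkn2a passed as well (log2 0.21). Median depth was 2440, 2663 and 1640 UMIs in the upper tercile and 1626, 1758 and 1380 UMIs in the lower. Fibroblast markers were lower in the upper tercile, at 183, 165 and 262 CPM against 215, 194 and 364 CPM, in the direction of Ccnd1, and their part in its difference was not tested. Of 28 pathway genes that are not in the list, 6 were higher and 1 lower.

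With a list of 43 S phase genes in its place, 11.3% of 12562 genes passed and 2 of the 10 did. Cdkn2a had 146, 136 and 185 CPM in the upper tercile and 111, 106 and 135 CPM in the lower, higher in 3 of 3 libraries (log2 0.36, edgeR adjusted p = 0.00416). Ccnd1 was lower in 3 of 3 libraries (−0.26, edgeR adjusted p = 0.0181). Cdkn1c and Ccnd2 gave 0.01 and 0.02 in this fit, close to the vehicle libraries. By library, Cdkn1c was at 0.04, 0.05 and −0.89, the last from 12 and 22 UMIs. Ccnd2 was at 0.05, 0.03 and 0.66, the last from 54 and 33 UMIs, so EV 1 stood apart for both. Neither passing gene passed without vehicle 1, without vehicle 2, with DESeq2 or with no library block. Fibroblast markers summed to 194, 195 and 251 CPM in the upper tercile and 195, 182 and 417 CPM in the lower. Of 28 pathway genes that are not in the list 11 were higher and 1 lower, among them E2f2 (log2 2.45) and E2f1 (1.25) as higher.

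**Figure D3:**
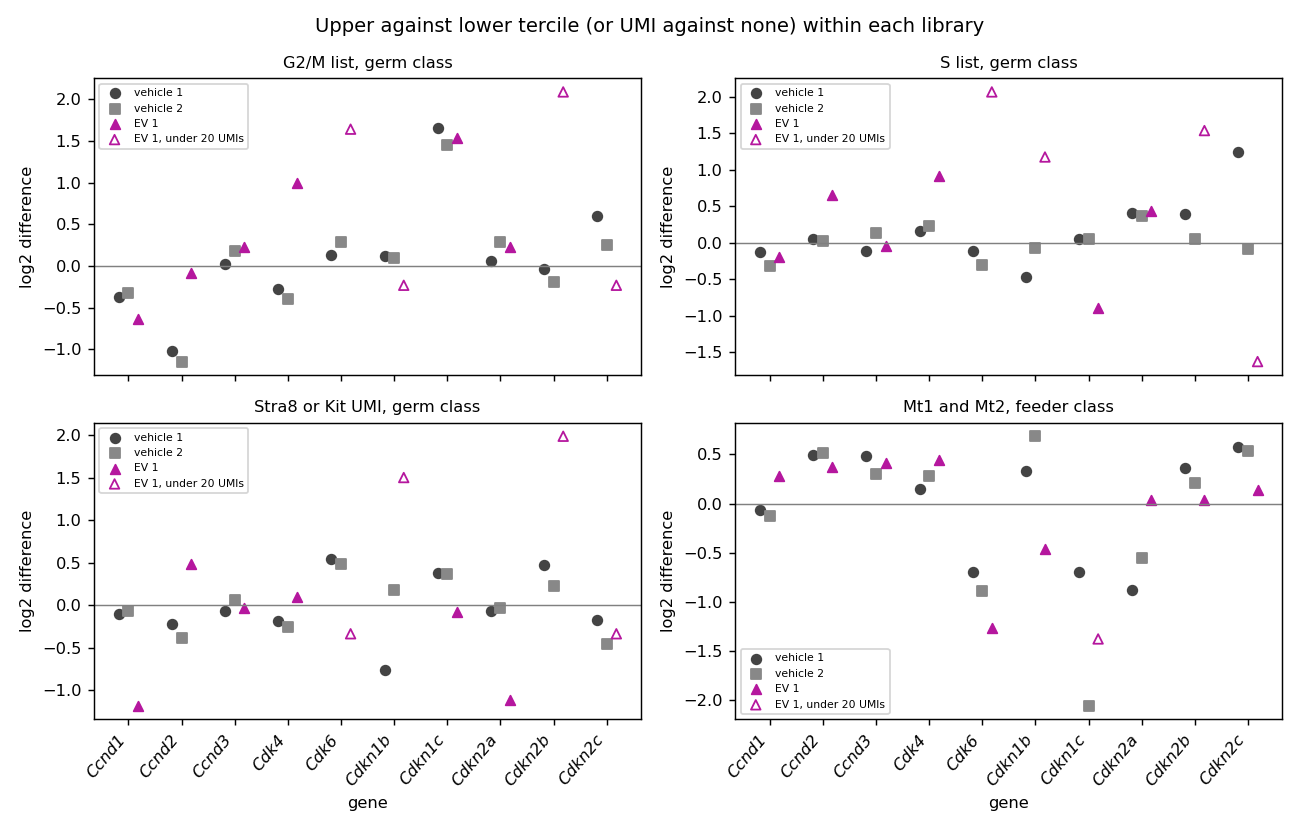
Log2 difference in CPM of the 10 genes within each library, between terciles of germ class cells by G2/M or S list share, between germ class cells with and without a Stra8 or Kit UMI, and between terciles of feeder class cells by Mt1 and Mt2 share. Open symbols rest on fewer than 20 UMIs. Cdkn1c sits at 1.65, 1.45 and 1.53 in the G2/M panel, whereas EV 1 leaves the vehicle libraries for Ccnd2.

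Stra8 and Kit rise when spermatogonia enter differentiation. Germ class cells with a UMI of either numbered 1376, 1557 and 31, so EV 1 adds little here. Ccnd2 had 488 against 571 CPM in vehicle 1 and 481 against 629 CPM in vehicle 2, but 644 against 466 CPM in EV 1, from 37 and 106 UMIs. Cdkn1c had 269 against 207, 277 against 214 and 226 against 246 CPM. For both genes EV 1 ran opposite to the vehicle libraries. In the edgeR test 3.93% of 13142 genes passed (198 higher and 319 lower, or 267 and 269 with total UMIs alone), and 4 of the 10 genes did. Cdk6 (log2 0.48, adjusted p = 0.0154) and Cdkn1c (0.35, adjusted p = 0.000153) were higher, and Ccnd2 (−0.32, adjusted p = 7.93e-05) and Cdk4 (−0.24, adjusted p = 0.0139) lower, each in 2 of 3 libraries. None passed with DESeq2, with no library block, without vehicle 1 or without vehicle 2. Fibroblast markers summed to 168, 177 and 296 CPM with a UMI and 206, 188 and 299 CPM without. The cells with a UMI were deeper, with medians of 2175.5, 2354 and 1640 UMIs against 1889, 2016.5 and 1409, and which of the cells without a UMI lacked both transcripts cannot be told at this depth. Of 30 pathway genes 1 was higher and 2 were lower, or 1 and 0 with total UMIs alone.

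Feeder class cells were compared by their share of Mt1 and Mt2, metallothioneins that bind metals and respond to stress. Ccnd2 had 401, 416 and 588 CPM in the upper tercile against 285, 292 and 456 CPM in the lower. Cdk6 ran the other way, with 152, 147 and 124 CPM against 247, 273 and 300 CPM. Both differences kept their direction in 3 of 3 libraries. In the edgeR test 46.3% of 11827 genes passed and 8 of the 10 did, 7 of them higher. They were Ccnd2 (log2 0.79), Cdkn2c (0.77), Ccnd3 (0.73), Cdk4 (0.61), Cdkn1b (0.54), Cdkn2b (0.54) and Ccnd1 (0.36), with edgeR adjusted p from 1.35e-05 to 0.0431, while Cdk6 was lower (−0.62, adjusted p = 0.000123). Scaling by total UMIs alone moved the median of all genes from −0.02 to −0.34 and the split from 2782 higher and 2694 lower to 1021 higher and 4794 lower. Then Ccnd2 (0.45), Cdkn2c (0.45), Ccnd3 (0.39) and Cdk4 (0.28) were still higher, Cdk6 (−0.95) and Cdkn2a (−0.55) were lower, Cdkn1c gave −1.30 and also passed, and Ccnd1 (0.02), Cdkn1b (0.21) and Cdkn2b (0.21) did not pass. Ccnd1 by total UMIs was −0.07 and −0.12 in the vehicle libraries and 0.28 in EV 1, and without vehicle 1, without vehicle 2 or with no library block it did not pass. Cdkn1b had 42.0, 49.2 and 39.0 CPM in the upper tercile and 33.2, 30.5 and 53.7 CPM in the lower, so EV 1 was opposite to the vehicle libraries, and it did not pass without vehicle 2, with DESeq2 (adjusted p = 0.0801) or with no library block (edgeR adjusted p = 0.119). Fibroblast markers summed to 1712, 1733 and 1521 CPM in the upper tercile and 1686, 1737 and 1948 CPM in the lower. Germ markers summed to 13.3, 13.4 and 2.63 CPM in the upper tercile and 22.4, 14.04 and 4.88 CPM in the lower, in the direction of Cdkn1c and Cdkn2a, and their part was not tested. The level of Cdkn1c in the feeder class is at background, so its value is not read as a change. Of 26 pathway genes 3 were higher and 7 lower, or 2 and 13 with total UMIs alone.

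The title of the series names let-7b and let-7c as cargo of the EVs, microRNAs with 1 shared seed, and D cyclins and Cdk6 are known targets of the let-7 family. The mature sequences (RefSeq, GRCm38.p6) are shown to let the seed, bases 2 to 8 in capitals, be read against the genes:
let-7b-5p: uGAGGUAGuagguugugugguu
let-7c-5p: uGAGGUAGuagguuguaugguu
They differ at 1 base outside the seed. Let-7b lies at chr15:85707325-85707346, and let-7c at chr15:85706616-85706637 and chr16:77599672-77599693, all on the plus strand. The longest annotated 3′ UTR of each gene (GENCODE vM21) was searched on its own strand for CTACCTC, the reverse complement of the seed, and for TACCTCA, that of bases 2 to 7 followed by an A. Cdk4 held CTACCTC once, as did 9.02% of 21025 genes at least once. Ccnd2 held TACCTCA 3 times and Ccnd1 and Cdk6 once each, as did 9.78% of genes at least once. Ccnd3 and the 5 inhibitors held neither. The sites are printed 5′ to 3′ with the match in capitals:
Ccnd1, chr7:144930597-144930619, minus strand: ggttcctgttcacaaTACCTCAt
Ccnd2 first, chr6:127128299-127128321, minus strand: aaagagagtattcttTACCTCAg
Ccnd2 second, chr6:127128221-127128243, minus strand: ttttcgttttcctaaTACCTCAc
Ccnd2 last, chr6:127125585-127125607, minus strand: tatccttctgccatgTACCTCAg
Cdk6, chr5:3521624-3521646, plus strand: tttaaggagtgagtgTACCTCAg
Cdk4, chr10:127067658-127067680, plus strand: cctagggcccgaggcCTACCTCc

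EV 1 was then set against the vehicle libraries within each class. With 1 EV library there is no replicate check and no test, and a gene was called when its log2 ratio was at least 1 in size and the gap from EV 1 to the nearer vehicle library exceeded the gap between the vehicle libraries. In the germ class none of the 4 genes with a let-7 match had an interval that left out 1. The ratio of EV 1 to the pooled vehicle libraries was 0.932 for Ccnd2 (exact conditional 95% interval 0.795 to 1.08), 1.03 for Ccnd1 (0.786 to 1.32), 0.869 for Cdk4 (0.630 to 1.17) and 0.775 for Cdk6 (0.333 to 1.54). Each interval includes 1, and the widths show what could not be detected at 325012 UMIs. Free RNA was estimated higher in EV 1, and less this estimate Ccnd2 was at 502, 534 and 415 CPM and Cdk4 at 133, 135 and 107 CPM. Ccnd1 was then at 65.9, 82.9 and 43.7 CPM, lowest in EV 1, and Cdk6 at 8.43 and 10.9 CPM in vehicle and below 0 in EV 1. These differences were not given an interval. The share taken off was 18.9% of the feeder level in EV 1 against 11.9% and 10.8% in vehicle. For these genes the subtraction itself therefore lowers EV 1 more. Less the estimate, Ccnd3, which has no match, was also lowest in EV 1 (129, 128 and 111 CPM), whereas Cdkn1c and Cdkn2a were highest there. Cdkn1c (1.06, interval 0.837 to 1.32), Cdkn2a (1.21, 0.883 to 1.61) and Ccnd3 (0.924, 0.662 to 1.26) also included 1. As background, 8.62% of the 9674 genes counted 200 times or more were called, against 1 of the 10. That gene was Cdkn1b, at 18.5 CPM in EV 1 and 8.41 ± 0.816 CPM in vehicle (SD, n = 2), from 6 UMIs in EV 1. Its interval also included 1 (ratio 2.18, 0.790 to 4.85), and it had only 179 UMIs in all. Outside the set, Cdkn1a was higher in EV 1 (ratio 3.54, 2.73 to 4.52). Cdkn1a has a feeder level of 993 CPM in EV 1, and its free RNA estimate in that germ class was 188 of the 209 CPM measured.

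In the feeder class the counts were larger and several intervals left 1 out. The share of all genes with such an interval was not counted, so this is not a result about the set. Ccnd2 was 555 CPM in EV 1 and 345 ± 17.8 CPM in vehicle (ratio 1.61, 1.54 to 1.67). Ccnd1 was 779 CPM in EV 1 and 982 ± 19.7 CPM in vehicle (ratio 0.793, 0.769 to 0.817). By total UMIs the sum of the D cyclins stayed in the vehicle range, at 1416 CPM in EV 1 against 1373 and 1425 CPM. This depends on the scaling. TMM, the scaling method of the edgeR tests, gave feeder class factors of 1.02, 1.04 and 0.943, which would put the sum of EV 1 above both vehicle libraries. Shares among the D cyclins do not depend on it. The share of Ccnd2 among D cyclin UMIs was 24.2%, 25.1% and 39.2%. Cdk4 was at a ratio of 0.789 (0.736 to 0.845), and Cdk6 at 0.997 (0.936 to 1.06). Ccnd3 was at 1.14 (1.03 to 1.25).

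Among feeder class inhibitors, Cdkn2c was lower in EV 1 (ratio 0.613, 0.504 to 0.741), as was Cdkn2a (0.728, 0.570 to 0.921). Free RNA of germ cells was estimated at 3.90, 2.94 and 0.960 CPM for Cdkn2a there, and less this estimate its levels were 14.8, 14.1 and 12.0 CPM, a smaller difference. Cdkn2b was at 0.964 (0.858 to 1.08) and Cdkn1b at 1.15 (1.00 to 1.31). Of the 9705 genes counted 200 times or more, 4.22% were called, against 1 of the 10, and that was Cdkn1c (ratio 0.183, 0.0578 to 0.444). Cdkn1c had 5 UMIs in EV 1 and its vehicle level was below the free RNA estimate, which falls with the germ class share of 53.4%, 55.4% and 4.75% of cells. It had 87 UMIs over the 3 libraries, under the 200 used for the background. Feeder class cells of EV 1 also held more Mt1 and Mt2, with an upper tercile starting at 1.16% of UMIs against 0.301% and 0.282% in the vehicle libraries. Ccnd2 was higher with Mt1 and Mt2 within each library as well, and their part in its difference between libraries was not tested. Treatment and library cannot be told apart.

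**Figure D4:**
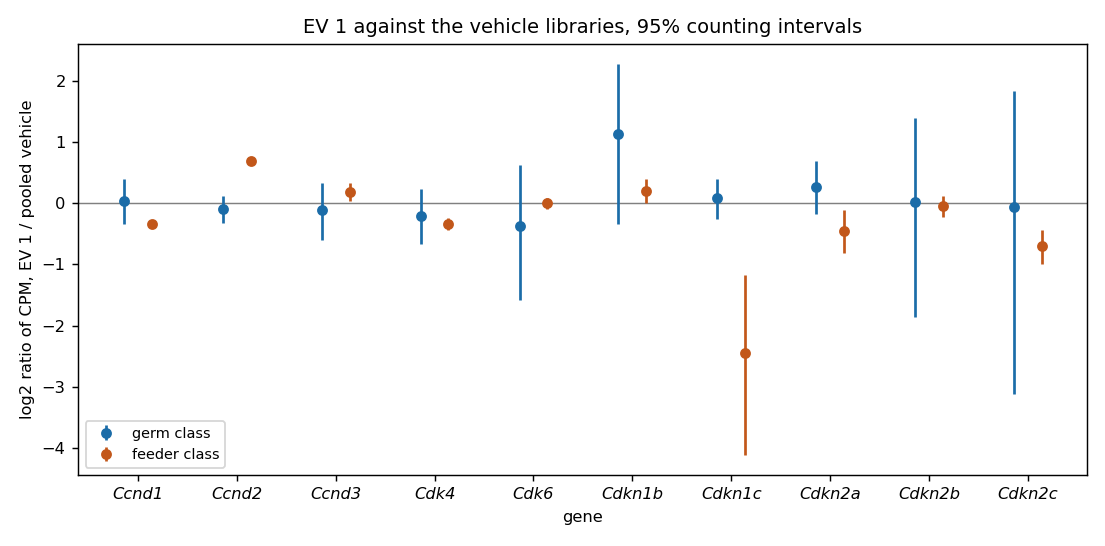
Log2 ratio of CPM in EV 1 to the pooled vehicle libraries for each gene in the germ class (blue) and the feeder class (orange), with exact conditional 95% intervals that cover counting error only. For all 10 genes the germ class interval includes 0, and in the feeder class Ccnd2, Ccnd3 and Cdkn1b lie above 0 while Ccnd1, Cdk4, Cdkn1c, Cdkn2a and Cdkn2c lie below it. The share of all genes with an interval that leaves out 0 was not counted.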

How the data were processed

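Per the labels and the methods of the study, the authors aligned droplet libraries to mm10 and counted UMIs with Cell Ranger 7.0.1. The deposited values are raw UMI counts per gene and barcode, with barcodes already called as cells. Whether introns were counted is not given in the sources used here. Titles gave the groups and replicates. The count matrices of 3 libraries (both vehicle libraries and EV 1) were used, and at most 22 barcodes were shared between any pair of libraries. A cell was kept with more than 400 genes, fewer than 4000 genes and a mitochondrial share below 10%. The highest Scrublet scores (scanpy 1.11.5) were removed at 0.8% per 1000 cells, leaving 8263, 8637 and 4779 cells.

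UMIs were summed per library and class and given as CPM. Sums were tested with edgeR 4.0.16 (R 4.3.3, TMM scaling, filterByExpr, non-legacy quasi-likelihood) with the library as a block. The block pairs both classes, or both sets of cells, of the same library, and cells were never replicates. No test was made between EV 1 and vehicle. Single log2 ratios carry 0.5 UMI added to each sum. DESeq2 1.42.0, other scalings, filters, class rules and left-out libraries were the alternatives. Levels less the free RNA estimate were added after the data were seen. The legacy quasi-likelihood, the default of the tool, was moved to the alternatives after its results were seen. By rule, the text names all 10 genes, the 3 highest and 3 lowest of the 31 pathway genes in the class difference, Cdkn1a, Cdkn2d, Mtap, Dmrta1 and the 3 nearest patterns of each D cyclin. E2f1 was named after its values were seen. The genes, lists and comparisons were chosen with earlier results of these data known. Sequences came from RefSeq tables and GENCODE vM21 transcripts of GRCm38.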

Additional observations from a re-analysis of the deposited data

How the results depend on the processing

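In the class difference 9 of the 10 genes passed, and 8 to 10 passed under the 13 alternatives. Ccnd2 was gained with total UMIs alone and without EV 1, and Ccnd3 was lost with DESeq2, without vehicle 1 and without vehicle 2. In the G2/M terciles the 4 genes that passed became 2 without a filter on low counts, 2 with DESeq2 and 2 with no replicate block, and 0 to 5 with a library left out. Over all genes the number went from 2861 to 686, 252 and 1134 in that order, to 1708 with the stricter class rule, and to between 0 and 3661 with a library left out. In the S terciles 2 became 1 without the filter, with a split at the median and with the stricter class rule, 0 with DESeq2 (0 at an unadjusted p under 0.05) and 0 with no replicate block (1 unadjusted), and 0 to 3 with a library left out. All genes went from 1414 to 522 (no filter), 126 (DESeq2), 374 (no block) and 0 to 2308. For Stra8 or Kit 4 became 2 without the filter, 0 with DESeq2 (0 unadjusted) and 0 with no replicate block (2 unadjusted), and 0 to 4 with a library left out. All genes went from 517 to 149, 5 and 4, to 201 with the stricter class rule, and to 0 to 913. For Mt1 and Mt2 8 of the 10 genes passed, and 6 to 9 under the alternatives. All genes that passed were 5476, and 2904 with DESeq2, 3227 with no replicate block and 3344 with the stricter class rule. The numbers of 0 with a vehicle library left out stand beside 1413 and 1311 (G2/M), 805 and 786 (S) and 578 and 562 (Stra8 or Kit) genes at an unadjusted p under 0.05 in edgeR, where 2 libraries per side remained, 1 of them EV 1. Called genes of EV 1 over vehicle went from 834 to 1486 (stricter class rule) and 2434 (minimum of 50 UMIs) in the germ class, and from 410 to 915 (minimum of 50 UMIs) in the feeder class.

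The mean share of Ccnd2 in the germ class was 63.0%, and 64.2% with the stricter class rule, 62.0% with no doublet removal, 61.9% over all barcodes, 72.2% with free RNA subtracted and 64.1% as a mean over cells. Cdkn1c in the germ class moved from 59.98% to 63.1% with free RNA subtracted, and Cdkn2b in the feeder class from 40.3% to 38.3% as a mean over cells. The share of germ class cells with a Ccnd2 UMI was 37.3%, and 55.1% unthinned and 55.0% at 2000 UMIs. That of feeder class cells with a Ccnd1 UMI was 49.0%, and 75.3% unthinned, 71.3% at 2000 UMIs and 53.5% with the stricter class rule. No difference of the set that passed in the main setting or in an alternative had opposite signs in those settings. Between alternatives the class difference of Ccnd2 did change sign. It passed as higher in the germ class with total UMIs alone (0.48) and without EV 1 (0.29). It did not pass without vehicle 1 (−0.21) or without vehicle 2 (−0.20). No paired analysis was possible because the expression of EV 2 was not analysed here, so the replicate numbers pair nothing between the arms. Beyond the alternatives' own construction (fewer libraries, fewer cells, other depths) the cause was not tested. Depth limits the germ class of EV 1 most, where Cdkn1b, Cdkn2b and Cdkn2c had 6, 4 and 2 UMIs.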

Other observations

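Cells with no class numbered 1495, 1381 and 2044 in vehicle 1, vehicle 2 and EV 1. Their Ccnd1 level of 572, 674 and 452 CPM and their Ccnd2 level of 436, 492 and 399 CPM lay between those of the classes in the vehicle libraries. Cdk6 had 164, 155 and 270 CPM there, the last above both classes of EV 1. Cdkn1c had 95.4, 72.1 and 12.7 CPM in the same cells.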
